A study of Mus musculus with 12 samples.

Results

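The Bcl-2 family, the group of proteins that decides whether mitochondria release the signal for cell death, was followed through the transcripts of 10 of its genes in regulatory T cells of NOD mice with and without Drak2. The 10 genes were taken by symbol: the survival genes Bcl2, Bcl2l1 and Mcl1, the effector genes Bax and Bak1, and the BH3-only genes Bcl2l11, Bid, Bmf, Bbc3 and Pmaip1. Of these, 9 had a named row among the 19505 genes tested, each with 1 row. Bax had no named row and was not analysed here.

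The series held 12 arrays of 1 colour, 1 per mouse: 6 from NOD mice, a strain prone to autoimmune diabetes, and 6 from mice on that background whose genotype is given as NOD.Drak2-/-. All mice were female and 4 to 8 weeks old, and no treatment is given for either genotype. Lymph node cells were sorted for CD4, without CD8 and with little CD45RB; the sample source also lists CD25, whereas the antibodies named in the sorting protocol are those to CD4, CD8 and CD45RB. The labels do not say how the Drak2 allele was made or which part of the gene it lacks.

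In healthy cells the survival proteins BCL-2, BCL-XL (from Bcl2l1) and MCL-1 hold the effectors BAX and BAK in check. BH3-only proteins, made or activated in response to cytokine loss, DNA damage or strong receptor signals, bind the survival proteins and so free the effectors. The effectors then open the outer mitochondrial membrane. In regulatory T cells, interleukin 2 is known to sustain MCL-1, and BIM (from Bcl2l11) is known to set their lifespan. Drak2, encoded by Stk17b, is a relative of the death-associated protein kinases and dampens T cell receptor signalling.

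Stk17b gave signal in both genotypes, running from 10.21 to 10.80 with a median of 10.55 (log2) in NOD and from 9.97 to 10.36 with a median of 10.32 in NOD.Drak2-/-. The difference was -0.27 (95% interval -0.52 to -0.02, adjusted p = 0.517 in limma) and the ranges overlapped. Where the row's probes lie relative to the deletion is not stated, so this row checks nothing about the genotype. T cell transcripts were bright: the regulatory T cell receptor gene Izumo1r averaged 11.73 in NOD and 11.84 in NOD.Drak2-/-, and 13 of 14 measured T and regulatory T cell markers were above background on all 12 arrays. The exception was Il2ra, which encodes CD25 itself and was below each array's brightest background row on all 12 arrays, and Foxp3 had no named row. Background here is, on each array, the brightest of 23 rows of probes with no target in the genome. It ran from 5.51 to 6.06 on the NOD arrays and from 5.55 to 6.77 on the NOD.Drak2-/- arrays, with NOD.Drak2-/- replicates 1 and 2 at 6.52 and 6.77.

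No measured member of the Bcl-2 family passed the test between genotypes, and the largest difference was that of Pmaip1, which encodes the BH3-only protein NOXA. Pmaip1 was lower in NOD.Drak2-/- by 0.48 on the log2 scale at an unadjusted p of 0.0118, a difference that did not pass after adjustment over all genes (adjusted p = 0.471 in limma). Of the 9 measured members 0 had an adjusted p under 0.05, where 4 of all genes (0.0205%) did. At an unadjusted p under 0.05 there was 1 member of 9, Pmaip1, beside 9.43% of all genes, split into 5.69% lower and 3.74% higher in NOD.Drak2-/-. A share of 1 in 9 is near that background. The genotypes overlapped for each of the 9 members, whereas they were fully apart for 0.513% of all genes. Negative differences were found for 6 of 9 members, Bmf among them although it was below background on all arrays, and for 54.1% of all genes, and the median difference was -0.16 over the members and -0.02 over all genes. Centring each array on its median moved all differences up by 0.07 and the members' median to -0.09, and turned the split of all genes at that p from 1110 lower and 730 higher to 531 lower and 1423 higher.

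**Figure D1:**
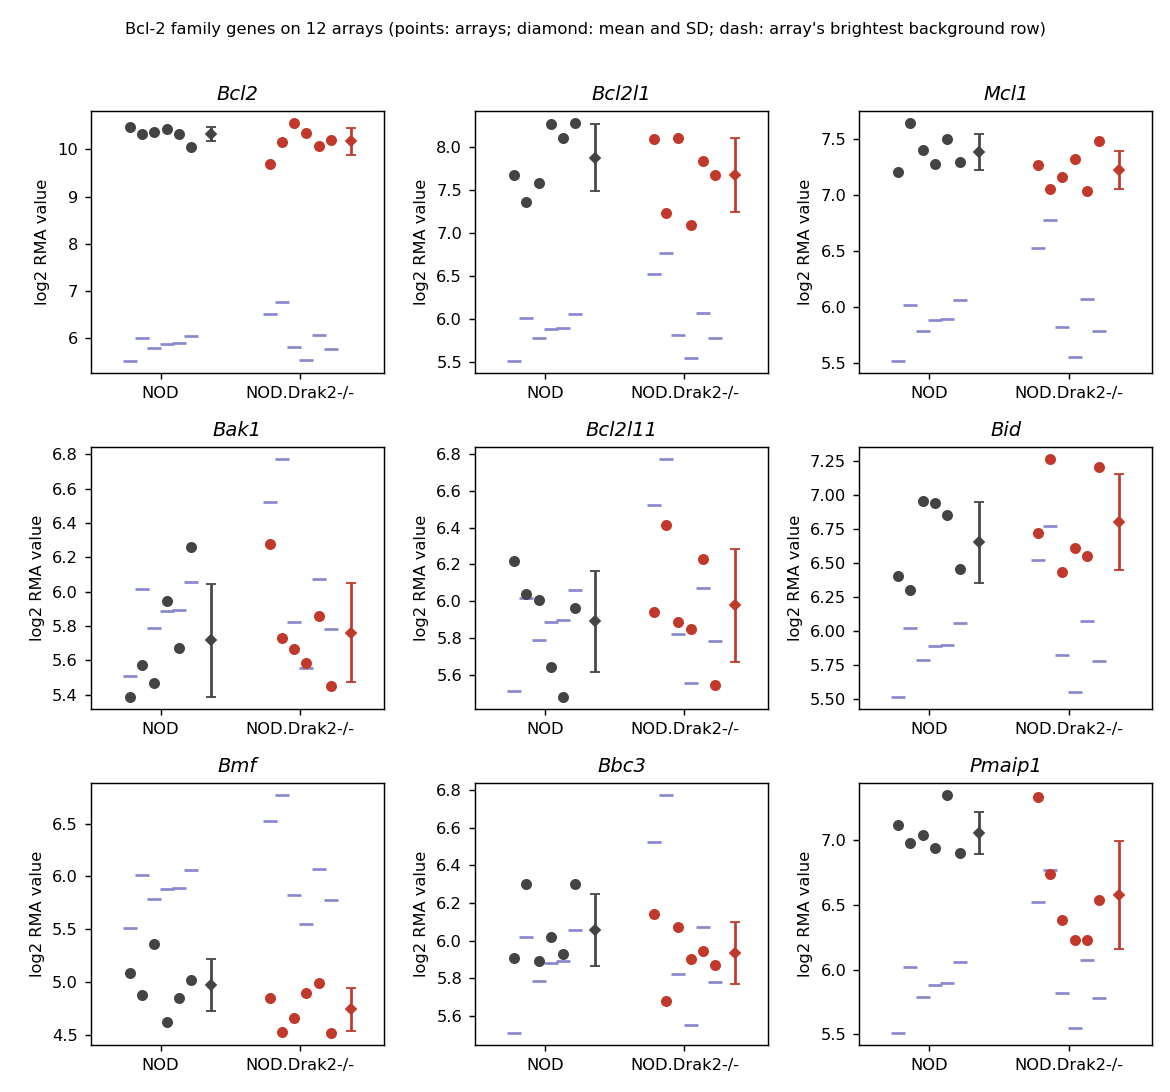
Log2 values of the 9 measured Bcl-2 family genes on each array (y axis, log2 RMA value, a separate scale per panel), with NOD in grey and NOD.Drak2-/- in red, replicates in number order, and mean and SD (n = 6) as a diamond and bar. Blue dashes give each array's own brightest background row. Pmaip1 is the panel in which 5 of 6 red points lie under all grey points, and Bmf the one in which all points lie under the dashes.

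The survival genes were read above background on all 12 arrays and had lower means in NOD.Drak2-/-, with ranges that overlapped. The margin over background was narrow for Mcl1 and Bcl2l1 in NOD.Drak2-/- replicate 2, at 7.06 and 7.23 against a background row of 6.77. Bcl2, the founding survival gene of the family, ran from 10.05 to 10.48 with a median of 10.35 in NOD and from 9.70 to 10.56 with a median of 10.18 in NOD.Drak2-/-. The NOD.Drak2-/- arrays held both the lowest value of all 12, in replicate 1, and the highest, in replicate 3. Their SD was 0.29, against 0.15 in NOD. The log2 difference was -0.16 (95% interval -0.45 to 0.13, adjusted p = 0.716 in limma), and an exact permutation of the genotype labels gave p = 0.262. On a linear scale that interval spans ratios of 0.734 to 1.09. Without NOD.Drak2-/- replicate 1 the difference was -0.06, and with the hybridization control covariate described further on it was -0.03.

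Bcl2l1, whose main product BCL-XL is induced by T cell activation, ran from 7.37 to 8.28 (median 7.89) in NOD and from 7.09 to 8.11 (median 7.76) in NOD.Drak2-/-. It had the widest spread of the survival genes, with SDs of 0.39 and 0.43. The log2 difference was -0.20 (95% interval -0.64 to 0.23, adjusted p = 0.764 in limma, permutation p = 0.379). It ran from -0.31 without NOD replicate 2 to -0.09 without NOD.Drak2-/- replicate 4. The long and short splice forms of Bcl2l1 have opposite effects on survival. The gene's row gives a summary over its probes, so these forms cannot be told apart. The same limit holds for the splice forms of Mcl1 and Bcl2l11.

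Mcl1, a short-lived survival protein that regulatory T cells need, ran from 7.21 to 7.64 (median 7.35) in NOD and from 7.04 to 7.48 (median 7.22) in NOD.Drak2-/-. Here 5 of 6 NOD.Drak2-/- arrays lay below the NOD mean, 3 of them below all NOD arrays, while replicate 7 at 7.48 lay above all but 2 of the NOD arrays. The log2 difference was -0.16 (95% interval -0.41 to 0.08, adjusted p = 0.657 in limma, permutation p = 0.119). These 3 survival genes thus had differences of -0.20 to -0.16, each with an interval that includes 0. The arrays measure bulk RNA, so for all genes here fewer cells of a type and less RNA per cell cannot be told apart.

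Of the effectors, Bak1 was near background. It ran from 5.38 to 6.26 (median 5.62) in NOD and from 5.45 to 6.28 (median 5.70) in NOD.Drak2-/-, and was above the array's own brightest background row on 3 of 12 arrays. The log2 difference was 0.04 (95% interval -0.31 to 0.39, adjusted p = 0.945 in limma), and its sign turned under 5 of the alternative settings and omissions given in the closing section. BAK is held by MCL-1 and BCL-XL in the resting mitochondrion, and its transcript gave no detectable difference at this signal.

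The BH3-only genes included the largest difference of the family. Pmaip1, whose product NOXA binds MCL-1 and speeds its breakdown, gave 7.12, 6.98, 7.04, 6.94, 7.35 and 6.90 in NOD replicates 1 to 6. In NOD.Drak2-/- replicates 1 to 5 and 7 it gave 7.33, 6.74, 6.39, 6.23, 6.23 and 6.54. In other words 5 of the 6 NOD.Drak2-/- arrays lay below every NOD array, and the remaining one, replicate 1, lay above all NOD arrays but replicate 5. All NOD arrays were above their own brightest background row, as were 5 of 6 in NOD.Drak2-/-; the exception was replicate 2, where that row stood at 6.77.

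Pmaip1 averaged 7.06 ± 0.16 in the NOD arrays and 6.58 ± 0.42 in those of NOD.Drak2-/- (mean and SD, n = 6 each). Their difference of -0.48 (SE 0.17, 95% interval -0.84 to -0.12) is a ratio of 0.717 (0.56 to 0.919). The exact permutation test, two-sided, gave p = 0.0325 before any adjustment, and the limma p ranked 483 among the 19505 genes. The size of the difference was larger than that of 97.6% of genes. Without NOD.Drak2-/- replicate 1 the difference was -0.63, at an unadjusted p of 0.00018 and an adjusted p of 0.314 in limma, so that leaving out the array that went against the others did not bring the gene past the threshold. Pmaip1 had already been named in an earlier description of these arrays, so its standing here is no independent support.

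Bcl2l11, which encodes BIM, the BH3-only protein that binds all survival proteins and removes T cells after cytokine loss, did not share that pattern. It ran from 5.48 to 6.22 (median 5.99) in NOD and from 5.54 to 6.41 (median 5.91) in NOD.Drak2-/-, and was above the array's own background on 6 of 12 arrays, 3 in each genotype. The log2 difference was 0.09 (95% interval -0.25 to 0.42, adjusted p = 0.876 in limma). Bbc3, which encodes the p53 target PUMA, ran from 5.89 to 6.30 (median 5.97) in NOD and from 5.68 to 6.14 (median 5.92) in NOD.Drak2-/-. It was above background on all 6 NOD arrays but on 3 of 6 NOD.Drak2-/- arrays, and differed by -0.12 (95% interval -0.37 to 0.13, adjusted p = 0.747 in limma), or -0.07 without NOD.Drak2-/- replicate 2.

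The start-site windows of Bcl2l11 and Bbc3 are shown because both genes are textbook targets of FOXO factors, which are active when growth factor signals fall. The windows come from the RefSeq promoter table of build GRCm38.p6 and were cut to the 250 bases before an annotated start, on the gene's strand, 5′ to 3′. That of Bcl2l11 lies at chr2:128125788-128126037 on the plus strand and that of Bbc3 at chr7:16310011-16310260 on the plus strand, 1 of 2 windows of Bcl2l11 and 1 of 3 windows of Bbc3 in that table, chosen because they hold the match. Capitals mark matches to the FOXO core GTAAACA on either strand.
Bcl2l11: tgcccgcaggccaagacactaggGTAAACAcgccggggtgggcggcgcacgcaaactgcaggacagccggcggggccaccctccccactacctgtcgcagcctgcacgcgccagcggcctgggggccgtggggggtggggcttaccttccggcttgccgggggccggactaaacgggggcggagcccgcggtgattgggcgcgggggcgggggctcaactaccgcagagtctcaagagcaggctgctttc
Bbc3: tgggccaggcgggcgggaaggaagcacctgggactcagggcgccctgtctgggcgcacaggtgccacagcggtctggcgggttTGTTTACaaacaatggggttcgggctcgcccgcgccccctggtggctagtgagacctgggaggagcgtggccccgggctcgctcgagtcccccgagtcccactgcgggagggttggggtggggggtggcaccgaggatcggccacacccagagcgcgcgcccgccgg

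The match begins 227 bases before the start in Bcl2l11 and 167 bases before it, on the opposite strand, in Bbc3. The search covered 16 windows of 9 genes, which are the members other than Pmaip1, with Bax included; Pmaip1 was not searched. This core was in 2 of the 16 windows, beside 3.17% of all 32851 windows. The STAT core TTCNNNGAA, searched because interleukin 2 acts through STAT5, was found in 0 of the 16 windows and in 7.02% of all windows. The GC box core GGGCGG was found in 9 of 16 windows and in 32.7% of all. Members' windows held 47.6% to 81.6% G and C, with 14 of 16 above the 52.4% median of all windows. A match is a stretch of letters and was not tested for binding. The FOXO transcripts differed little: Foxo1, read on all arrays, by 0.03 (95% interval -0.19 to 0.25, adjusted p = 0.935 in limma), and Foxo3, above background on 6 of 12 arrays, by -0.03 (adjusted p = 0.937).

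Bid and Bmf completed the BH3-only genes. Bid, which is cut by caspase 8 to link death receptors to mitochondria, was above background on all arrays. It ran from 6.30 to 6.95 (median 6.65) in NOD and from 6.43 to 7.26 (median 6.66) in NOD.Drak2-/-. The medians nearly coincide, and replicates 2 and 7 of NOD.Drak2-/- lay above all NOD arrays. The log2 difference was 0.15 (95% interval -0.22 to 0.51, adjusted p = 0.801 in limma, permutation p = 0.444). It was 0.05 without NOD.Drak2-/- replicate 2, 0.06 without replicate 7, 0.0062 with array weights and -0.0089 with the hybridization control covariate. Bmf, whose product is held at the actin motor complex in healthy cells, was below background on all 12 arrays, so no difference is given. Its measured values ran from 4.63 to 5.36 in NOD and from 4.52 to 5.00 in NOD.Drak2-/- (adjusted p = 0.601 in limma).

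**Figure D2:**
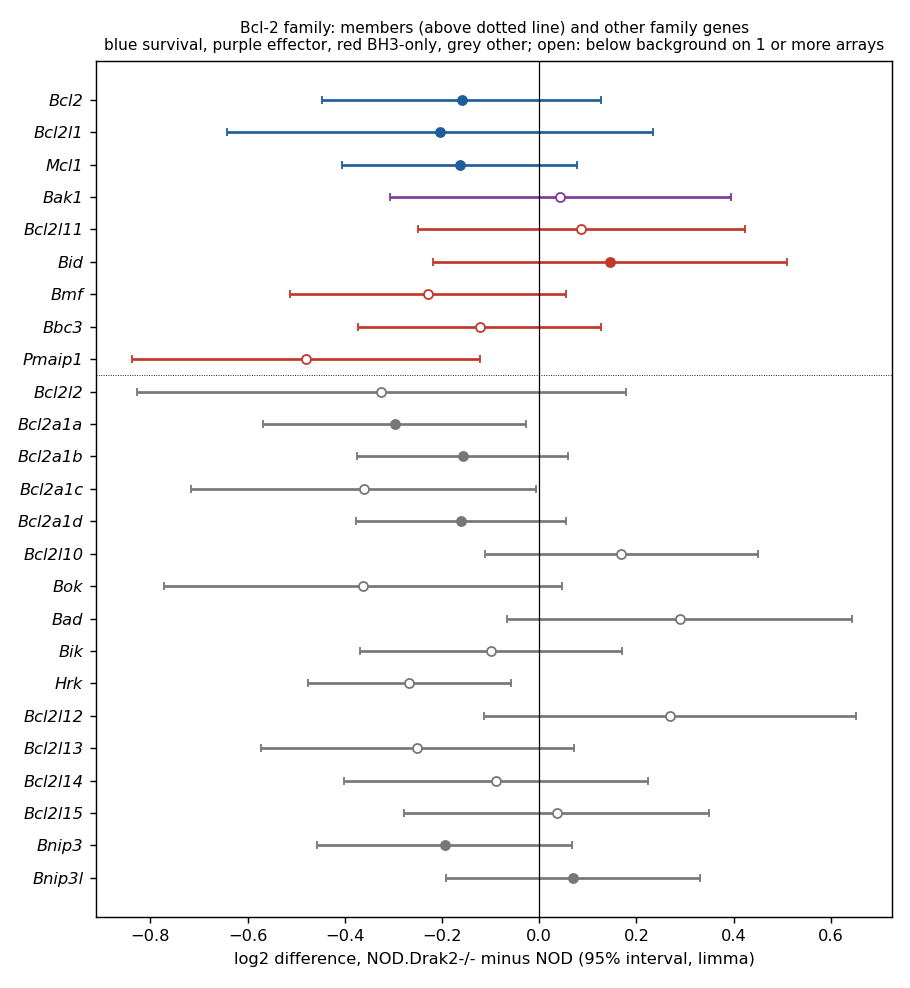
Log2 difference of NOD.Drak2-/- minus NOD (x axis) with its 95% interval from limma for the 9 measured members, above the dotted line, and the 16 other Bcl-2 family genes below it (y axis). Open circles mark genes that were not above the array's own brightest background row on every array. Among the members, the interval of Pmaip1 (-0.84 to -0.12) is the one that excludes 0, before adjustment.

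Since death is set by the survival and BH3-only proteins against each other, the change of each survival gene was also set against that of each BH3-only gene within the same array, where any scaling of the array cancels. For each of the 15 pairs the within-array gap was centred on its mean over the 12 arrays, and no test was made, because the pairs reuse the same genes. The gap between Mcl1 and Pmaip1, partners in binding, changed by 0.32 (SE 0.20, n = 6 per genotype). In NOD the centred gap ran from -0.40 to 0.18, and in NOD.Drak2-/- from -0.55 to 0.61, with replicates 3, 4, 5 and 7 above all NOD arrays and replicate 1 below them all. The gap of Bcl2 to Pmaip1 changed by 0.32 (SE 0.28) and that of Bcl2l1 to Pmaip1 by 0.28 (SE 0.26).

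The gaps to Bcl2l11, which was above background on 6 of 12 arrays, changed by -0.25 (SE 0.22) for Bcl2, -0.29 (SE 0.34) for Bcl2l1 and -0.25 (SE 0.24) for Mcl1 against Bcl2l11. Against Bid the changes were -0.31 (SE 0.24), -0.35 (SE 0.31) and -0.31 (SE 0.20) in the same order, and for Mcl1 against Bid 6 of 6 NOD.Drak2-/- arrays lay below the NOD mean. The gaps to Bbc3 changed by -0.08 to -0.04, and those to Bmf rest on values below background. None of these changes was tested, and most are close to 1 SE or smaller. The largest against their SE were those of Mcl1 to Pmaip1 (0.32, SE 0.20) and of Mcl1 to Bid (-0.31, SE 0.20), which have opposite signs. All these changes restate member differences that did not pass, so no direction of balance is read from them.

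**Figure D3:**
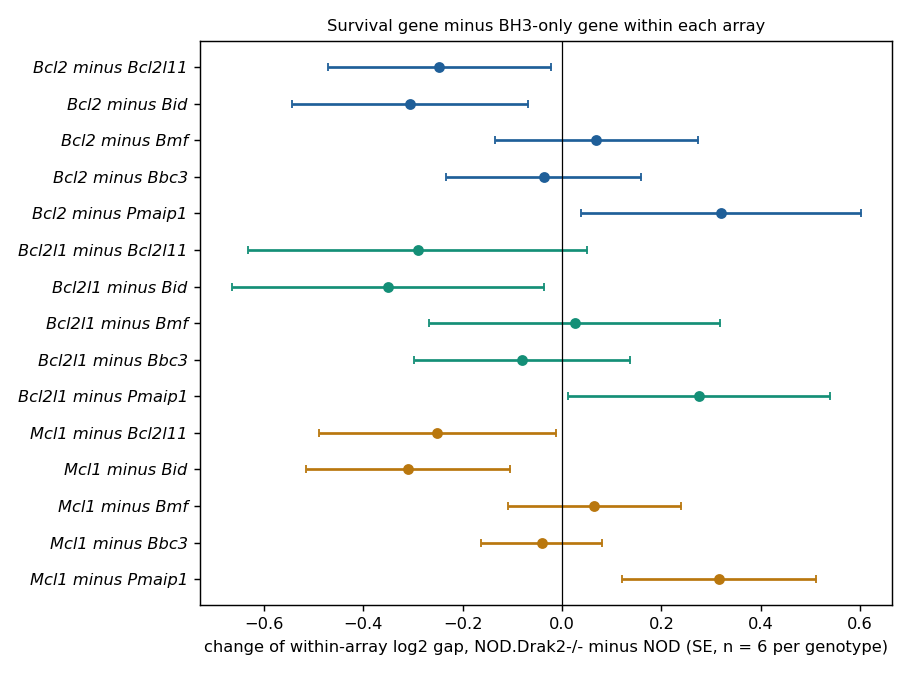
Change, NOD.Drak2-/- minus NOD, of the within-array log2 gap between a survival gene and a BH3-only gene (x axis, with SE, n = 6 per genotype) for all 15 pairs (y axis), coloured by survival gene. The 3 pairs with Pmaip1 lie between 0.28 and 0.32, and the 6 pairs with Bcl2l11 or Bid between -0.35 and -0.25.

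The remaining 16 genes of the family were all measured. Of them 0 passed in limma, 3 were at an unadjusted p under 0.05, all 3 lower in NOD.Drak2-/-, 11 of 16 had a negative difference, and the median was -0.16. Over all genes 9.43% had such a p, 5.69% with a lower value, and 54.1% had a negative difference. Hrk, a BH3-only gene best known from neurons, ran from 5.84 to 6.16 (median 5.90) in NOD and from 5.63 to 5.76 (median 5.69) in NOD.Drak2-/-. These groups did not overlap, as was the case for 0.513% of all genes. Any such gene has this permutation p of 0.00216, the smallest possible. The log2 difference of Hrk was -0.27 (adjusted p = 0.483 in limma), but Hrk was above background on 3 NOD arrays and 1 NOD.Drak2-/- array.

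The A1 genes, survival genes that NF-kB induces in activated lymphocytes, exist in mice as near-identical copies, so their rows may share signal and are uncertain as single genes. Bcl2a1a ran from 9.91 to 10.25 (median 10.09) in NOD and from 9.33 to 10.10 (median 9.83) in NOD.Drak2-/-, with 5 of 6 NOD.Drak2-/- arrays below the NOD mean. It differed by -0.30 (95% interval -0.57 to -0.03, unadjusted p = 0.0331, adjusted p = 0.513 in limma). Bcl2a1b (-0.16, adjusted p = 0.636) and Bcl2a1d (-0.16, adjusted p = 0.624) had the same sign, with 6 and 5 of 6 NOD.Drak2-/- arrays below the NOD mean. Bcl2a1c was the third gene with an unadjusted p under 0.05 (adjusted p = 0.526) but was below background on all arrays, with means of 4.12 in NOD and 3.76 in NOD.Drak2-/-.

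Of the other BH3-only genes, Bad, above background on 9 arrays, whose product is silenced by growth factor kinases, differed by 0.29 (adjusted p = 0.596) and lay above the NOD mean in 6 of 6 NOD.Drak2-/- arrays, and Bik, above it on 10, by -0.10 (adjusted p = 0.821). The survival gene Bcl2l2, which encodes BCL-W and was above background on only 5 arrays, differed by -0.32 (adjusted p = 0.672). The effector-like gene Bok was below background throughout, with means of 5.12 and 4.76 (adjusted p = 0.567). The mitophagy receptor genes Bnip3 and Bnip3l, both read on all arrays, differed by -0.19 (adjusted p = 0.624) and 0.07 (adjusted p = 0.874). Of the less studied relatives, Bcl2l12, above background on 8 arrays, differed by 0.27 (adjusted p = 0.645). Bcl2l13, also a mitophagy receptor and above background on 10 arrays, differed by -0.25 (adjusted p = 0.608). Bcl2l10, Bcl2l14 and Bcl2l15 were below background on all arrays.

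Genes that act after the mitochondrial step had a median difference of 0.02, with 7 of 14 measured members positive. Of them 0 passed in limma and 1 of 14 was at an unadjusted p under 0.05, a share near the 9.43% of all genes. That gene was Casp9, the caspase that the apoptosome activates, which ran from 4.49 to 5.12 (median 4.69) in NOD and from 4.05 to 4.62 (median 4.38) in NOD.Drak2-/-. Its unadjusted p was 0.0095 and its adjusted p 0.469 in limma, but it was below background on all 12 arrays. Apaf1, the apoptosome scaffold, was also below background on all arrays, with means of 5.06 and 4.59 (adjusted p = 0.577).

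Among 25 measured regulators of Bcl-2 family genes and proteins the median difference was -0.03. Of these 0 passed in limma and 2 of 25 were at an unadjusted p under 0.05, a share near the 9.43% of all genes; both were higher in NOD.Drak2-/-, as were 3.74% of all genes at that p. Il7r, the interleukin 7 receptor chain that sustains Bcl2 in resting T cells, ran from 8.11 to 9.27 (median 8.58) in NOD and from 8.98 to 9.35 (median 9.15) in NOD.Drak2-/-. All 6 NOD.Drak2-/- arrays lay above the NOD mean, yet the groups overlapped (log2 difference 0.54, 95% interval 0.18 to 0.89, unadjusted p = 0.00519, adjusted p = 0.469 in limma). Mapk9, which encodes the stress kinase JNK2 that can phosphorylate BIM and BMF, ran from 7.74 to 8.28 (median 8.12) in NOD and from 8.11 to 8.64 (median 8.39) in NOD.Drak2-/-, and differed by 0.31 (unadjusted p = 0.0227, adjusted p = 0.494).

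Between mice of the same genotype the members did not move as a block. After each genotype's mean was subtracted, the 36 pairs of members had Pearson correlations over the 12 arrays from -0.73 to 0.65, and 0 of 36 passed after Benjamini-Hochberg adjustment of permutation p-values. The most negative pair was Bcl2 and Bak1, with r = -0.73 (permutation p = 0.0089, adjusted p = 0.32) and Spearman's rho = -0.66 (permutation p = 0.0232, adjusted p = 0.418). Its r was -0.73 without the 2 arrays farthest from the median of Bcl2, and -0.77 within NOD and -0.79 within NOD.Drak2-/-. The most positive pair, Bcl2l1 and Bak1, had r = 0.65 (permutation p = 0.0308, adjusted p = 0.37) and rho = 0.57 (permutation p = 0.0576, adjusted p = 0.519), with r = 0.66 without the 2 farthest arrays. Bak1 was above its array's background on 3 of these 12 arrays, and the part of background in these correlations was not tested.

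**Figure D4:**
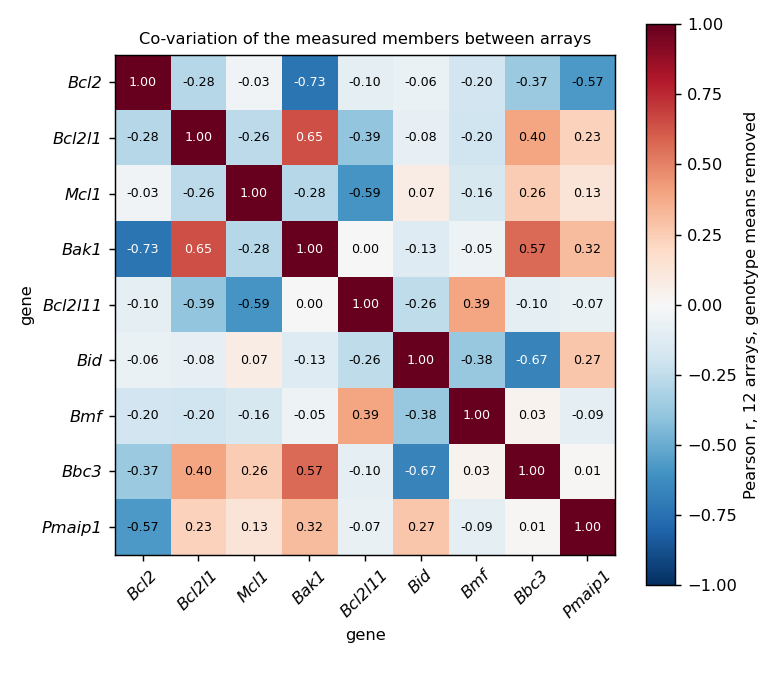
Pearson correlation (colour and printed value, -1 to 1) between the measured Bcl-2 family genes (both axes) over the 12 arrays, after each genotype's mean was subtracted. The strongest values are -0.73 for Bcl2 with Bak1 and -0.67 for Bid with Bbc3, and no block of genes shares 1 colour.

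The genes whose array-to-array pattern was most like that of a member were sought among 8127 genes whose mean lay above 5.87, the mean of the brightest background row, after subtracting genotype means. They are the highest of all those correlations and are given as a description over 12 arrays. For Pmaip1 they were Vps37b (r = 0.90, rho = 0.80), Sesn3 (r = 0.87, rho = 0.69) and the NF-kB inhibitor gene Tnfaip3 (r = 0.86, rho = 0.72). Without the 2 arrays farthest from the median of Pmaip1 these r were 0.61, 0.64 and 0.79. For Bcl2 they were Mtf2 (r = 0.89, rho = 0.83), Syncrip (r = 0.89, rho = 0.91) and Cfl2 (r = 0.88, rho = 0.90), with r of 0.86, 0.87 and 0.87 without the 2 arrays farthest from the median of Bcl2. For Mcl1 they were Nfyb (r = 0.89, rho = 0.78), Pde11a (r = 0.86, rho = 0.84) and Lsg1 (r = 0.85, rho = 0.85), with r of 0.73, 0.89 and 0.78 without the 2 farthest arrays. For Bcl2l11 they were Fam177a2 (r = 0.87, rho = 0.89), Ptpn5 (r = 0.82, rho = 0.78) and 1700016K19Rik (r = 0.81, rho = 0.71), with r of 0.83, 0.71 and 0.56 without them. None of these 12 genes differed between genotypes in limma, with adjusted p-values of 0.532 to 0.992.

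Markers of other cells and of cell handling were set beside the members. Of 36 relations between the members and the heat shock, B cell, myeloid and hybridization control means over the 12 arrays, genotype means removed, 0 passed after adjustment. The smallest p was that of the heat shock mean with Bak1, with r = 0.64 (permutation p = 0.0146, adjusted p = 0.527), rho = 0.62 (permutation p = 0.0305) and r = 0.49 without the 2 farthest arrays. The myeloid mean and Pmaip1 had r = 0.55 (permutation p = 0.0828, adjusted p = 0.669) and rho = 0.43 (permutation p = 0.189), with r = 0.20 without the 2 farthest arrays, -0.08 within NOD and 0.87 within NOD.Drak2-/-. The mean of 9 B cell markers ran from 4.63 to 5.02 in NOD and from 4.57 to 5.28 in NOD.Drak2-/-, with 5 of the 9 below background on all arrays, and its brightest gene, Cd79b, averaged 5.89 and 6.37 and was above the NOD mean in 6 of 6 NOD.Drak2-/- arrays (adjusted p = 0.436 in limma). The other B cell markers did not share that: 5 of 9 had a negative difference, among them Pax5 (-0.54) and Ebf1 (-0.46), and the list mean differed by -0.02. Of 13 myeloid and dendritic markers 12 were below background on all arrays; the mean ran from 3.93 to 4.21 in NOD and from 4.01 to 4.28 in NOD.Drak2-/-, and the brightest, Lyz2, averaged 5.53 and 5.81. Of 7 CD8 and NK cell markers 5 were below background on all arrays, with means of 4.28 to 4.61 and 4.16 to 4.65, while Cd8b1 averaged 7.27 and 7.45. Stromal and endothelial markers had means of 4.97 to 5.26 and 4.87 to 5.14. Of these 8 markers 6 were below background on all arrays, while Pecam1, which T cells also express, averaged 9.12 and 9.23. Low signal of this kind was common: 58.3% of all genes averaged under 5.87, the level at which the brightest background rows averaged. These marker counts therefore do not show that other cells were absent.

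The mean of 17 heat shock and dissociation genes ran from 7.57 to 7.84 in NOD and from 7.45 to 7.94 in NOD.Drak2-/-, replicate 1 of the latter being the highest. That is also the array with the lowest Bcl2 and the highest Pmaip1 of its genotype. With the mean of this list as a covariate the difference of Pmaip1 was -0.48 (adjusted p = 0.361 in limma), and with the B cell mean it was -0.48 (adjusted p = 0.51). The heat shock mean and Pmaip1 had r = 0.57 over the 12 arrays (permutation p = 0.132), but -0.71 within NOD and 0.80 within NOD.Drak2-/-. A covariate with the same slope in both genotypes cannot describe relations of opposite sign. The control transcripts added at hybridization averaged 9.30 to 9.90 in NOD and 9.14 to 10.84 in NOD.Drak2-/-. In NOD.Drak2-/- replicates 1, 2, 5 and 7 they averaged 10.37, 10.84, 10.58 and 10.02, above all NOD arrays. In replicates 3 and 4 they averaged 9.14 and 9.42. Replicates 1, 2, 5 and 7 also had medians over the background rows of 2.87 to 2.98, against 2.74 to 2.83 in NOD. Their medians over genes were 5.18, against 5.22 to 5.34 in NOD. The cause of this split was not tested. With the mean of these control transcripts as a covariate, a setting added after seeing the data, the difference of Pmaip1 was -0.58. Its unadjusted limma p was 0.00726, and it did not pass after adjustment (adjusted p = 0.9997).

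**Figure D5:**
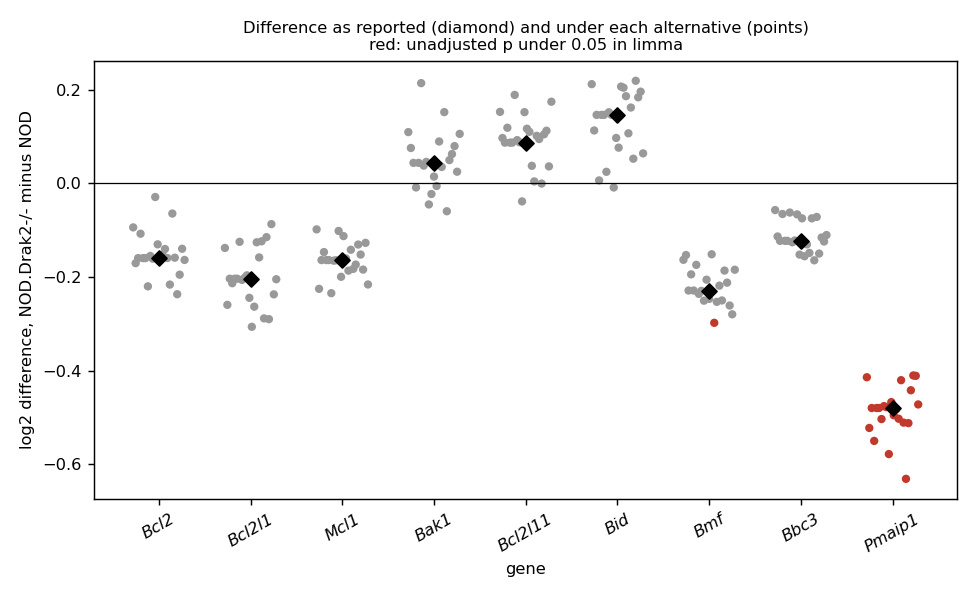
Log2 difference, NOD.Drak2-/- minus NOD (y axis), of each measured member (x axis) as reported (black diamond) and under each alternative setting or omission of 1 array (points), red where the unadjusted limma p was under 0.05. Pmaip1 stays between -0.63 and -0.41 with all points red, whereas Bak1, Bcl2l11 and Bid have points on both sides of 0.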

How the data were processed

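Values are log2 expression values from the authors' deposited table, 1 column per array. The submitters' processing notes name RMA (background correction, normalization between arrays and 1 summary per probe set) and oligo, an R package. No version or genome build was given in these sources. RMA forces arrays to a like distribution, so a true shift common to all genes cannot be read from these values. Medians over named genes still differed between arrays, from 5.18 to 5.34, which is why median centring moved all differences. Per the labels' protocols, 125 ng of RNA from column-extracted sorted cells was labelled with a whole-transcript kit. Groups came from the labels. Array values have no counting depth, and the number of arrays limits precision. Correlations between arrays over genes were 0.968 to 0.991.

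Of 29129 rows, 6923 were control rows and 2634 had no gene symbol in the platform annotation. The brightest row per gene left 19505 genes, and no dim genes were removed. The genotypes were compared in R 4.3.3 with limma 3.58.1 (lmFit and eBayes without covariates), with Benjamini-Hochberg adjustment over all genes and a threshold of 0.05; adjusted p-values of genes come from that fit unless a sentence names another. The step was tested on simulated data. Single genes were also compared by exact permutation of the genotype labels (two-sided). Correlations across the 12 arrays used 100000 rearrangements within genotypes.

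The members, lists and named-gene rule were chosen with earlier results of these data known. The rule named all members, all other family genes, of each further list the 2 genes with the smallest p, the brightest gene of each marker list, and the 3 genes most like Bcl2, Mcl1, Bcl2l11 and Pmaip1; Foxo1, Foxo3, Il2ra, Pax5 and Ebf1 were named beside it, after their values were seen. Alternatives were median centring, renewed quantile normalization, a trended and robust fit, array weights, the mean of all rows of a gene, genes above background, a replicate block, covariates and leaving out each array.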

Additional observations from a re-analysis of the deposited data

Results flagged for a closer look

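Of 20 groups of 6 arrays (the 9 members and Stk17b in each genotype), 2 held an array set apart from the others by more than Dixon's 95% limit, where about 1 in 20 is met by chance. For Bcl2 in NOD, replicate 6 lay at 10.05 while the other 5 arrays ran from 10.33 to 10.48. For Stk17b in NOD.Drak2-/-, replicate 2 lay at 9.97 while the others ran from 10.21 to 10.36. Without NOD replicate 6 the difference of Bcl2 was -0.22 (adjusted p = 0.586 in limma), whereas without NOD.Drak2-/- replicate 1 it was -0.06.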

How the results depend on the processing

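Members with an adjusted p under 0.05 in limma numbered 0 under all 22 alternatives, with a smallest adjusted p of 0.314, and 188 of 196 recomputed member differences kept their sign. Pmaip1 stayed between -0.63 and -0.41 with an unadjusted p under 0.05 in 22 of 22. Signs turned for Bak1 with array weights (-0.0088), with the hybridization control covariate (-0.0451) and when single arrays were left out (range -0.0596 to 0.1521; -0.0596 without NOD.Drak2-/- replicate 1, -0.0228 without NOD replicate 1, -0.0057 without NOD replicate 3). They turned for Bcl2l11 with that covariate (-0.0386) and without NOD.Drak2-/- replicate 2 (-0.0005; range over left-out arrays -0.0005 to 0.1743), and for Bid with that covariate (-0.0089). Leaving out single arrays moved Bcl2 between -0.24 and -0.06, Bcl2l1 between -0.31 and -0.09 and Bid between 0.05 and 0.22. The cause was not tested. Members at an unadjusted p under 0.05 were 1 to 2 in the limma fits when single arrays were left out, Bmf joining Pmaip1 without NOD replicate 4. Of all genes 4 passed, against 1 with the B cell covariate, 7 with the heat shock covariate, 2 with the hybridization control covariate, chosen after seeing the data, and 1 to 2 when single arrays were left out. The fit with the replicate number as a block used only the 10 arrays whose number occurs in both genotypes. In it 0 genes passed in limma and Pmaip1 was at -0.50 (unadjusted p = 0.0238, adjusted p = 0.629). The effects of the block and of having fewer arrays cannot be told apart there. No pairing of mice by number was seen: deviations of same-numbered arrays correlated at -0.18 to 0.09, and 0 of 10 arrays lay closest to their own number. These 5 same-number pairs are too few to show whether the numbers pair the mice. The filter on dim genes left out Bak1 and Bmf. Signal over background limits Bak1, Bcl2l11, Bmf and Bbc3. Pmaip1 too was near background on some NOD.Drak2-/- arrays, with 6.74 against 6.77 in replicate 2 and 6.23 against 6.07 in replicate 5.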
